A study of Rattus norvegicus with 21 samples.

Results

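The potassium channel genes of the rat left ventricle were taken as every row of the deposited gene tables whose name begins with Kcn followed by a further letter, the symbol stem of potassium channel subunits. This gave 97 genes of the 26597 listed. Of these, 39 had at least 10 counts in at least 3 of the 21 libraries and were tested, among 13276 genes tested in all. The rule used names and counts over all libraries, and no difference between groups. The tissue was left ventricle of the strain labelled F-344 Brown/Norway, and total RNA was sequenced in 6 groups. Females of 9 months without RLX, females of 24 months without RLX and females of 24 months given RLX were represented by 4 rats each, and the same groups in males by 3 rats each. RLX is relaxin, a peptide hormone, delivered at 400 ug/kg/day over 14 days from pumps under the skin, and the control rats (CTRL) received sodium acetate in its place. Each library came from 1 rat, named here by the number in its label. RLX-treated rats of 9 months were not analysed here.

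Potassium channels carry the outward current that ends the cardiac action potential and sets the resting voltage between beats. In the rodent ventricle the early repolarization is carried mainly by a transient outward current, made by pore subunits of the Kcnd family with the auxiliary subunit Kcnip2. Delayed rectifier subunits, inward rectifiers, channels gated by acetylcholine or closed by ATP, and the tandem-pore background channels act at later phases or at rest. Silent subunits form no channel of their own but join pore subunits of other families and alter their current. Transcript levels say nothing of the current itself, which was not measured.

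Total counts ranged from 11997512 to 19027947 per library. The 10 cardiomyocyte markers were all found in each group, with summed levels from 32718 to 48644 CPM (counts scaled to a common library size with TMM factors over the 21 libraries), and the 5 markers of atrial muscle from 35.5 CPM to 455 CPM. The highest atrial sum was in the 24-month female control rat 5, and the next in this group was 233 CPM in rat 6. Blood markers ranged from 2.11 CPM to 11216 CPM, highest in the RLX-treated female rat 4. Female and male libraries were loaded on the sequencer at different concentrations, so sex and sequencing conditions cannot be told apart in any comparison of the sexes. In tissue RNA, fewer cells of a type and less RNA per cell cannot be told apart.

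Levels between genes were compared in RPKM as deposited, in which reads are scaled to gene length and library size, since longer genes collect more reads. Kcnip2, the auxiliary subunit of the transient outward channel, stood far above every other member. Its mean was 116.6 RPKM over 21 libraries, with a lowest value of 64.5, a median of 110.8 and a highest of 174.1, and its range did not overlap that of the next gene. From 51.3% to 70.8% of all counts of potassium channel genes in a library belonged to Kcnip2 (median 63.6%). The pore subunits of the same current were much lower. Kcnd2 had a mean of 0.573 RPKM, Kcnd3 of 0.396 RPKM and Kcna4, the pore subunit of the slowly recovering transient current, of 0.335 RPKM.

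Second in mean level was Kcng2, a silent subunit, at 9.76 RPKM (range 1.44 to 19.3). Kcnj11 and Kcnj8, the pore subunits of ATP-sensitive channels in heart muscle and in vessels respectively, followed with 9.17 and 6.48 RPKM. Below Kcnip2 each gene's range overlapped that of the gene ranked above it, so the order of neighbours was not separated beyond the spread over libraries. Among delayed rectifier genes, the mean was 5.30 RPKM for Kcnq1, the pore subunit of the slow component, and 3.82 RPKM for Kcnh2, the pore subunit of the rapid component. Kcne1, the auxiliary subunit of Kcnq1, had a mean of 1.45 RPKM with a coefficient of variation of 109%, the highest of the 39 genes. Kcna2 had a mean of 0.943 RPKM and Kcna5 of 0.403 RPKM, both pore subunits of sustained outward currents. Kcne2 was under the count minimum.

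Of the strong inward rectifiers that hold the resting voltage, Kcnj2 had a mean of 4.16 RPKM and Kcnj12 of 1.57 RPKM, while Kcnj4 was not tested. The acetylcholine-gated pair Kcnj3 and Kcnj5, best known from the atrium, had means of 3.08 and 2.31 RPKM. Among 16 rows of tandem-pore genes, 5 were tested, led by Kcnk3 with a mean of 4.86 RPKM, Kcnk6 (the first of its 2 rows) with 2.81 RPKM and Kcnk2, a stretch-sensitive channel, with 1.24 RPKM. The calcium-activated genes were low, and Kcnma1, the pore subunit of the large-conductance channel of smooth muscle, had a mean of 0.0863 RPKM. The mean reached at least 1 RPKM in 18 of the 39 genes tested.

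**Figure D1:**
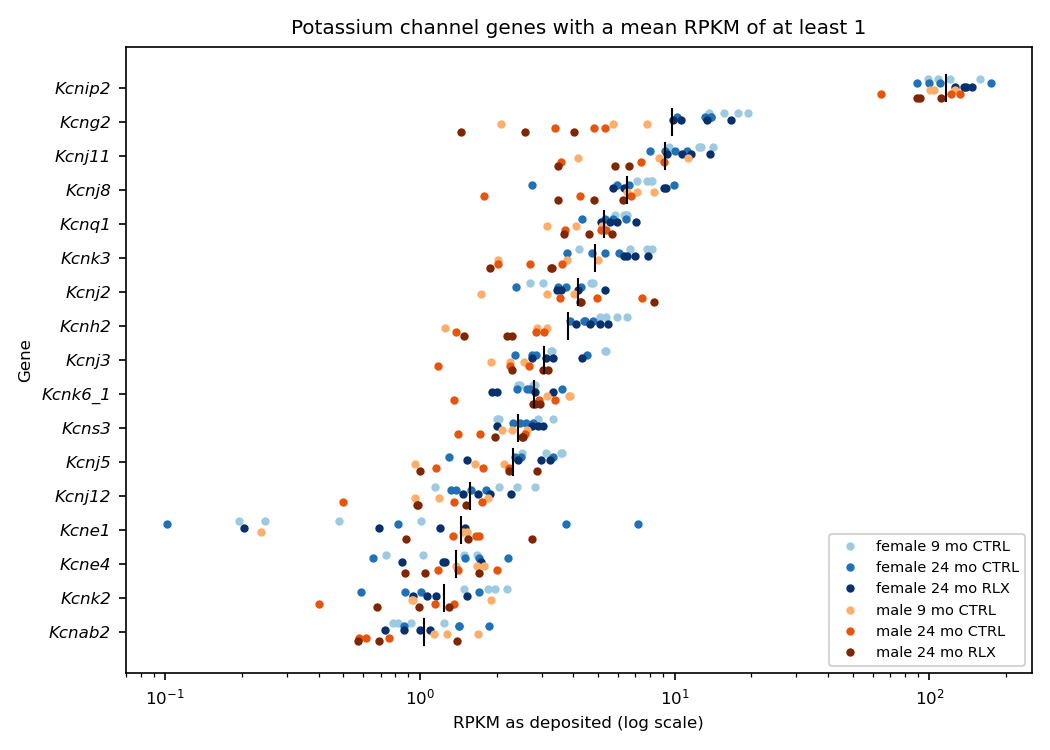
RPKM as deposited (log scale) of 17 potassium channel genes with a mean of at least 1 RPKM, with 1 point per library coloured by group and a vertical line at the mean of the 21 libraries. Kcnip2 (mean 116.6) lies apart from all others, Kcng2 (range 1.44 to 19.3) is split between the sexes, and Kcne1 spreads most.

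The 58 genes below the minimum were read as little detected at this depth. No library held a count for 8 of them, the highest count in any library was at most 3 for 36, and the highest of all was 15. None of the 7 other inward rectifier genes passed. Nearest to the minimum were Kcnmb2, Kcnk10, Kcnc2 and the second row of Kcnn2, each with 8 counts in the library that ranked next after the highest pair. Just inside were Kcnip3, Kcnmb1 and Kcnma1, which reached 10 counts in 4, 5 and 4 libraries. Kcnk6, Kcnk13 and Kcnn2 are each listed in 2 rows, so the counts of these genes may be divided.

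The clearest difference among the potassium channel genes was between the sexes, in Kcng2 and Kcnh2. For both, all 12 female libraries were above all 9 male libraries, a separation in this direction that 0.866% of all genes tested showed. No other of the 39 genes separated the sexes across all libraries.

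Kcng2 (ENSRNOG00000017189, chromosome 18 in the tables) was at 36.6, 27.7, 30.4 and 35.0 CPM in 9-month female rats 1, 3, 4 and 5. In the 9-month males it was at 4.76, 16.8 and 11.3 CPM in rats 3, 2 and 4. The groups did not overlap, and male rat 3 was lowest by far. The mean was 32.4 ± 4.11 CPM (SD, n = 4) in females and 10.9 ± 6.02 CPM (SD, n = 3) in males. The log2 fold change was 1.57 (SE 0.331, quasi-likelihood adjusted p = 0.0353). At 24 months the female controls held 27.3, 29.5, 19.6 and 25.8 CPM in rats 2, 4, 5 and 6, and the male controls 9.17, 10.9 and 11.7 CPM in rats 12, 8 and 11. Again no female library reached as low as any male library. The fitted log2 change was 1.28 (SE 0.169, quasi-likelihood adjusted p = 0.00604).

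Kcnh2 (ENSRNOG00000009872, chromosome 4 in the tables), which forms the pore of the rapid delayed rectifier, was at 28.4, 21.9, 22.0 and 22.8 CPM in 9-month female rats 1, 3, 4 and 5. The 9-month males 3, 2 and 4 held 6.05, 14.3 and 12.0 CPM, and rat 3 was again the lowest. The log2 fold change of females against males was 1.14 (SE 0.243, quasi-likelihood adjusted p = 0.0314). At 24 months Kcnh2 was at 19.5, 17.4, 17.9 and 18.6 CPM in female rats 2, 4, 5 and 6 and at 7.90, 13.5 and 14.2 CPM in male rats 12, 8 and 11. The groups did not overlap, but the log2 fold change of 0.63 (SE 0.191, quasi-likelihood adjusted p = 0.0838) was not past the threshold. With RLX the 24-month females held 16.7, 23.7, 22.8 and 24.4 CPM in rats 1, 2, 4 and 6 and the males 10.4, 7.51 and 9.40 CPM in rats 2, 3 and 7, which was not tested.

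Called genes had a quasi-likelihood p adjusted over all genes of at most 0.05. At 9 months 2 of 39 members were called, both higher in females, beside 4.26% of all genes. DESeq2 called 5, of which 4 were higher in females, beside 9.56% of all genes. An unadjusted p under 0.05 was reached by 10 members, 7 higher and 3 lower in females, against 24.3% of all genes (11.2% higher and 13.2% lower), so the share was near the background. At 24 months 1 of 39 was called beside 4.93% of all genes, and DESeq2 called 3 beside 10.2%. An unadjusted p under 0.05 was reached by 8, 7 higher and 1 lower in females, beside 24.3% of all genes (12.4% higher and 11.9% lower). The median log2 difference of the 39 members at 24 months was 0.28, and 0.01 over all genes. Of the 39, 27 were above 0, beside 51.6% of all genes. The 9-month calls did not withstand leaving out single rats: without female rat 1, 3 or 4 or male rat 4 no member was called, with Kcng2 at an adjusted p of 0.0677 to 0.103 and Kcnh2 at 0.0654 to 0.0841, and without female rat 5 Kcng2 was at 0.0598. The log2 fold changes were 1.52 to 1.64 for Kcng2 and 1.05 to 1.23 for Kcnh2 in the fits that lost their call. Over all fits that left out a rat, Kcng2 ranged from 1.22 without male rat 3 to 2.00 without male rat 2. Kcnh2 ranged from 0.86 to 1.39, with the same rats left out. Without male rat 2 there were 6 calls. The share of all genes called in that fit is not given, so whether the rise is particular to these genes cannot be told. The 24-month call of Kcng2 held without any single rat (log2 1.19 to 1.39).

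The next smallest p at 9 months belonged to the acetylcholine-gated Kcnj3. It was at 20.2, 12.2, 18.8 and 10.8 CPM in female rats 1, 3, 4 and 5 and at 7.87, 10.1 and 8.09 CPM in male rats 3, 2 and 4. All females were above all males, with a log2 fold change of 0.84 (SE 0.231, quasi-likelihood adjusted p = 0.0620). Its partner Kcnj5 had 3.84, 3.04, 4.14 and 3.91 CPM in the same females and 1.30, 2.12 and 2.52 CPM in the males, also without overlap (log2 0.91, SE 0.263, quasi-likelihood adjusted p = 0.0693). The groups did not overlap for 9 of the 39 members, 6 with females higher, beside 21.8% of all genes. Without male rat 2, Kcnj3, Kcnq1 and Kcnk3 passed the threshold (quasi-likelihood adjusted p of 0.0498, 0.0209 and 0.0417), as did Kcnk2.

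At 24 months Kcnt2, a sodium-activated channel, came second. Female control rats 2, 4, 5 and 6 held 1.68, 1.39, 2.46 and 2.59 CPM and male control rats 12, 8 and 11 held 0.488, 1.05 and 0.606 CPM. The groups did not overlap, and the log2 fold change of 1.49 (SE 0.371, quasi-likelihood adjusted p = 0.0503) lay at the threshold. In CPM, 4 of 39 members did not overlap at 24 months, all higher in females, beside 24.1% of all genes. Kcnn1, a small-conductance calcium-activated channel, was 1 of them, at 1.68, 1.18, 1.61 and 1.51 CPM in female rats 2, 4, 5 and 6 against 0.488, 0.723 and 0.937 CPM in male rats 12, 8 and 11. Its log2 fold change was 1.03 (SE 0.321, quasi-likelihood adjusted p = 0.0925).

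Marker levels also differed between the sexes. At 9 months the summed cardiomyocyte markers spanned 41258 to 48644 CPM in the female libraries and 34037 to 47573 CPM in the male libraries. Macrophage markers spanned 163 to 208 CPM against 248 to 367 CPM in the same order, and fibroblast markers 1974 to 2763 CPM against 2716 to 5276 CPM. Blood markers summed to 2.11 to 5.02 CPM in the female libraries against 53.8 to 124 CPM in the male libraries, and 3 of 4 were called lower in females. Male rat 3, lowest in Kcng2 and Kcnh2, had the highest fibroblast and macrophage sums of its group. At 24 months the cardiomyocyte sum of the female controls spanned 32718 to 37242 CPM, below the male controls at 45605 to 47423 CPM. For fibroblast markers the female controls held 3449 to 4090 CPM, above the male range of 2606 to 3269 CPM. The cardiomyocyte and fibroblast sums each overlapped between the sexes at 9 months. The part of cell make-up in the sex differences of the potassium channel genes was not tested.

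**Figure D2:**
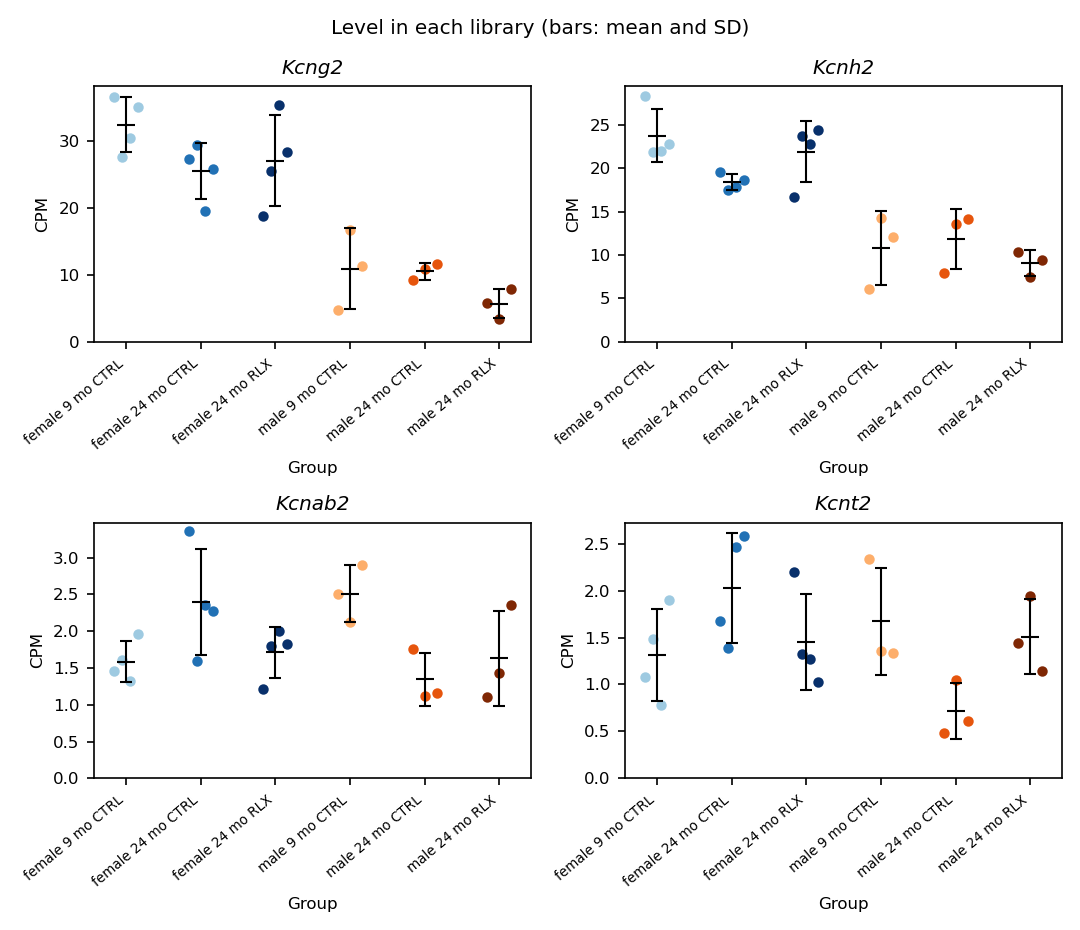
CPM in each library (points) of Kcng2, Kcnh2, Kcnab2 and Kcnt2 in the 6 groups, with the mean and SD as bars. All female libraries lie above all male libraries for Kcng2 and Kcnh2, whereas Kcnab2 and Kcnt2 are higher at 24 than at 9 months by the mean of female controls (2.40 against 1.59 CPM for Kcnab2) and lower in male controls (1.34 against 2.51 CPM).

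An interaction term over the control rats asked whether the effect of age differed by sex. One potassium channel gene was called, Kcnab2, beside 2.93% of all genes, and 6 of 39 reached an unadjusted p under 0.05 beside 19.8%. Kcnab2 (ENSRNOG00000011550, chromosome 5 in the tables) is an auxiliary beta subunit of voltage-gated channels of the Kcna family, and is known as an oxidoreductase-like protein. Female controls held 1.46, 1.61, 1.32 and 1.96 CPM at 9 months (rats 1, 3, 4 and 5) and 3.36, 1.60, 2.36 and 2.27 CPM at 24 months (rats 2, 4, 5 and 6). In males the values were 2.51, 2.12 and 2.90 CPM at 9 months (rats 3, 2 and 4) and 1.76, 1.12 and 1.16 CPM at 24 months (rats 12, 8 and 11). Age groups overlapped in females through rat 4 and did not overlap in males, in which all older rats were lower.

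The log2 difference of the aging effects of Kcnab2, females minus males, was 1.52 (SE 0.397, quasi-likelihood adjusted p = 0.0496), close to the threshold. It was not past the threshold in 10 of the 14 fits that left out a rat (adjusted p up to 0.138), with a log2 difference of 1.32 to 1.54 in those fits. DESeq2 called 2 members, Kcnab2 and Kcnt2, beside 6.64% of all genes. Kcnt2 had a log2 difference of 1.82 (SE 0.535, quasi-likelihood adjusted p = 0.0759), and Kcnd2, a pore subunit of the transient outward channel, one of 1.46 (SE 0.570, quasi-likelihood adjusted p = 0.164). Fibroblast and macrophage markers moved in the same direction as Kcnab2, with 4 of 7 and 4 of 4 called higher in the interaction. Their part was not tested.

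Female aging, 24-month against 9-month controls, gave no called member by the quasi-likelihood test, beside 4.93% of all genes. An unadjusted p under 0.05 was reached by 9 of 39, 4 higher and 5 lower, beside 20.8% of all genes (11.4% higher and 9.4% lower). DESeq2 called 1, Kcnh2, beside 9.01% of all genes, and edgeR's exact test and voom called 0 beside 6.9% and 5.5%. The median log2 fold change was 0.03 in the members and 0.00 over all genes. By role, all 6 calcium-activated genes and the auxiliary genes Kcnab1, Kcnab2, Kcnip3 and Kcne4 had values above 0 (median 0.43 and 0.40), the auxiliary Kcnip2 was at -0.01, and both ATP-sensitive and both acetylcholine-gated genes had values below 0. Outside Kcnip2, 3 of these genes reached an unadjusted p under 0.05.

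Kcnh2 had the smallest p. The values given above, 21.9 to 28.4 CPM at 9 months and 17.4 to 19.5 CPM at 24 months, did not overlap, and the log2 fold change was -0.37 (SE 0.109, quasi-likelihood adjusted p = 0.0733). By DESeq2 the adjusted p was 0.0410. Groups did not overlap for 3 of 39 members beside 13.7% of all genes.

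Kcnmb4, the auxiliary beta subunit of the large-conductance calcium-activated channel found mainly in neurons, was at 0.487, 0.558, 0.360 and 0.581 CPM at 9 months (rats 1, 3, 4 and 5). At 24 months it was at 1.01, 0.626, 1.23 and 1.33 CPM (rats 2, 4, 5 and 6). The older rats were all higher, by a log2 fold change of 1.07 (SE 0.336, quasi-likelihood adjusted p = 0.0884). Schwann cell and nerve markers summed to 15.4 to 25.6 CPM at 9 months and 19.5 to 25.6 CPM at 24 months, and their part was not tested.

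Kcnk2 was at 6.55, 5.20, 6.60 and 6.87 CPM in 9-month rats 1, 3, 4 and 5 and at 6.11, 3.68, 1.93 and 2.78 CPM in 24-month rats 2, 4, 5 and 6. Only rat 2 reached the level of the younger rats. This gave a log2 fold change of -0.81 (SE 0.287, quasi-likelihood adjusted p = 0.132). Over the fits that left out a rat it ranged from -1.18 without 24-month rat 2 to -0.59 without 24-month rat 5. The quasi-likelihood adjusted p in these fits was 0.0251 to 0.279, and only the fit without rat 2 passed the threshold.

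Kcne1 had the largest fold change and rested on a pair of rats. Its counts were 3, 5, 2 and 11 at 9 months (rats 1, 3, 4 and 5) and 1, 8, 82 and 35 at 24 months (rats 2, 4, 5 and 6). In CPM the last values were 0.0672, 0.556, 4.39 and 2.21, so that rats 5 and 6 were high and rat 2 was the lowest of all 8. On the log2 scale the difference was 2.61 (SE 1.01, quasi-likelihood adjusted p = 0.186), and 1.67 without rat 5. The same rats had the highest atrial marker sums of their group, 455 CPM in rat 5 and 233 CPM in rat 6 against 76.3 CPM in rat 2 and 93.5 CPM in rat 4, and the part of atrial tissue was not tested. Kcnma1 was highest in rat 6 with 25 counts, which also had the highest sum of mural and smooth muscle markers in its group, 307 CPM.

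Smaller shifts at an unadjusted p under 0.05 were seen in Kcng2 (log2 -0.34, SE 0.136, quasi-likelihood adjusted p = 0.168) and Kcnj11 (log2 -0.33, SE 0.146, quasi-likelihood adjusted p = 0.227), both lower with age. Neither passed the adjusted threshold. Kcnab2 (log2 0.59) and Kcnd1, a transient outward pore subunit, (log2 0.73) were higher at adjusted p of 0.203 and 0.231 by the quasi-likelihood test. In the same comparison the cardiomyocyte marker sum was 41258 to 48644 CPM at 9 months and 32718 to 37242 CPM at 24 months without overlap, and 3 of 10 cardiomyocyte markers were called lower and all 4 macrophage markers higher. The fibroblast sum was 1974 to 2763 CPM at 9 months and 3449 to 4090 CPM at 24 months, with 2 of 7 markers called higher. The T cell sum was 9.52 to 15.1 CPM and 17.9 to 31.6 CPM in the same order, with 3 of 5 called higher, and neither sum overlapped between the ages. The part of these cell types in the values of Kcnh2, Kcng2 and Kcnj11 was not tested.

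RLX in 24-month females gave no called member by the quasi-likelihood test, beside 0% of all genes, and none by DESeq2, edgeR's exact test or voom, which called 2.11%, 0.866% and 0% of all genes. 5 of 39 members reached an unadjusted p under 0.05, 4 higher and 1 lower with RLX, beside 13.7% of all genes (6.73% higher and 7% lower). The median log2 fold change was 0.15 in the members and 0.00 over all genes. The median of the members changed with the method: it was -0.002 by voom, and -0.13 in 81 genes without the count filter. Of the transient outward genes, Kcnd2, Kcnd3, Kcna4 and the auxiliary Kcnip2 had values above 0 and Kcnd1 was at -0.59. The auxiliary genes Kcnab1, Kcnab2, Kcnip3 and Kcne4 had values below 0. None of these genes reached an unadjusted p under 0.05.

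Kcnk3, a tandem-pore channel sensitive to acid that carries background current, had the smallest p. RLX-treated rats 1, 2, 4 and 6 held 14.8, 16.9, 15.3 and 18.4 CPM and control rats 2, 4, 5 and 6 held 14.0, 12.5, 10.1 and 7.76 CPM. All treated rats were above all controls, with a log2 fold change of 0.56 (SE 0.165, quasi-likelihood adjusted p = 0.194). Kcnk3 was the only member of 39 whose groups did not overlap, beside 7.78% of all genes. The 9-month females held 18.6, 9.48, 16.8 and 13.4 CPM in rats 1, 3, 4 and 5, a range that overlapped both 24-month groups.

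Kcna2, a pore subunit of a sustained outward current, was at 2.89, 3.05, 2.21 and 4.61 CPM in RLX-treated rats 1, 2, 4 and 6 and at 2.28, 1.60, 1.71 and 1.77 CPM in control rats 2, 4, 5 and 6. Only treated rat 4 was below a control rat. The log2 fold change was 0.79 (SE 0.248, quasi-likelihood adjusted p = 0.220). Kcnj11, the muscle ATP-sensitive pore subunit, was also higher at an unadjusted p under 0.05 (log2 0.34, SE 0.144, quasi-likelihood adjusted p = 0.325).

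Kcnma1 had counts of 4, 0, 1 and 2 in treated rats 1, 2, 4 and 6 and of 5, 3, 11 and 25 in control rats 2, 4, 5 and 6. The groups overlapped, and the fitted log2 fold change of -2.46 (SE 0.787, quasi-likelihood adjusted p = 0.224) rested on few reads. Mural and smooth muscle markers summed to 119 to 147 CPM in the treated and 118 to 307 CPM in the control rats, with the highest value in rat 6. The cardiomyocyte sum was 41119 to 47101 CPM with RLX and 32718 to 37242 CPM without, and 8 of 10 of these markers were higher at an unadjusted p under 0.05 though none was called. The part of either in the member values was not tested.

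The RLX-treated females were also compared with 9-month females, which share no rat with them. The quasi-likelihood test called 0 of 39 members beside 0.00753% of all genes, DESeq2, edgeR's exact test and voom called 0 beside 0.717%, 0.422% and 0.00753%, and 4 reached an unadjusted p under 0.05 beside 11.2%. Kcnk2 was at 3.12, 4.77, 3.88 and 5.56 CPM in treated rats 1, 2, 4 and 6, below 3 of the 9-month rats and with rat 6 above the lowest of them. This gave a log2 fold change of -0.56 (SE 0.183, quasi-likelihood adjusted p = 0.310).

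Kcnd2 was at 1.44, 2.27, 1.27 and 1.68 CPM in the treated rats and at 0.920, 0.929, 1.20 and 0.687 CPM in 9-month rats 1, 3, 4 and 5, without overlap. On the log2 scale the difference was 0.82 (SE 0.277, quasi-likelihood adjusted p = 0.317). Kcnip2, its auxiliary partner, was at 361, 388, 371 and 375 CPM in the treated and at 259, 278, 391 and 279 CPM in the 9-month rats. Only 9-month rat 4 was as high as the treated rats, which lay close together at 374 ± 11.3 CPM (SD, n = 4). The fitted log2 change was 0.31 (SE 0.124, quasi-likelihood adjusted p = 0.392). Kcnmb4 (log2 0.76, SE 0.324, quasi-likelihood adjusted p = 0.411) also did not overlap, so that 2 of 39 members were apart, beside 6.39% of all genes.

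**Figure D3:**
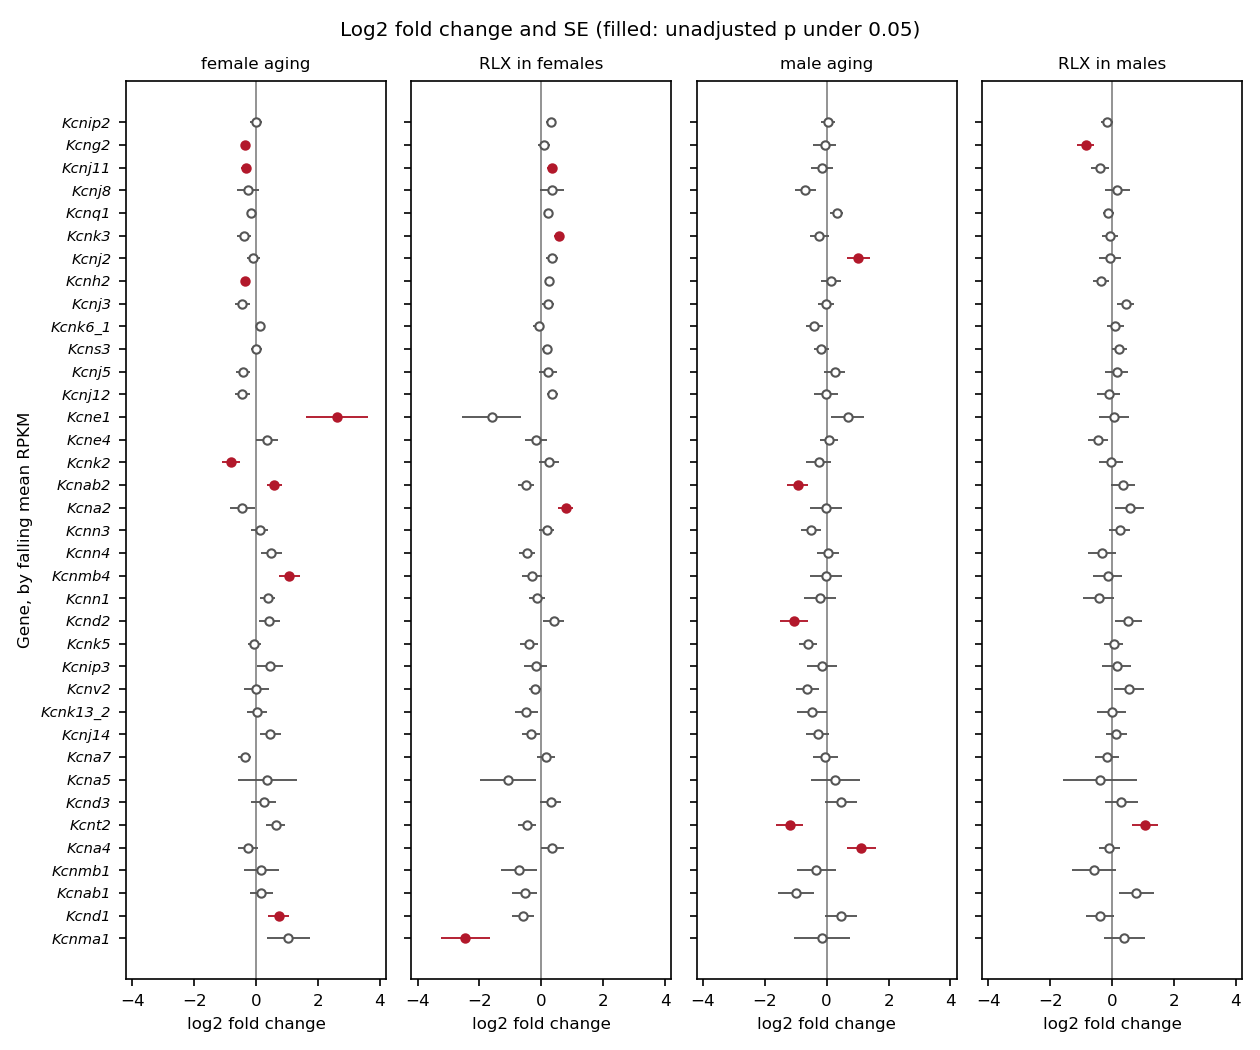
Log2 fold change (points) and its SE (bars) of 37 of the 39 tested potassium channel genes, in order of mean RPKM, with aging (24-month against 9-month controls) and RLX (treated against control at 24 months) in each sex, and filled points for an unadjusted p under 0.05. None of these genes was called in the 4 comparisons, and among the 37 shown the number of filled points is 8, 4, 5 and 2 from left to right.

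Male aging gave no called member by the quasi-likelihood test, beside 0% of all genes, and none by DESeq2, edgeR's exact test or voom, which called 0.49%, 0.588% and 0.527% of all genes. An unadjusted p under 0.05 was reached by 5 of 39, 2 higher and 3 lower, beside 8.44% of all genes (2.93% higher and 5.51% lower). The median log2 fold change was -0.14 in the members and -0.01 over all genes, and 12 of 39 members had values above 0 beside 48.2% of all genes. None of the 5 tandem-pore genes and none of the 3 silent subunits had a value above 0, and none of them reached an unadjusted p under 0.05. Without TMM factors, all potassium channel genes summed to 270 CPM in 24-month male control rat 12, the lowest of the 21 libraries. The sums were 499 and 489 CPM in rats 8 and 11 of its group. The part of rat 12 in these signs and in the median was not tested. With 3 rats against 3 the groups did not overlap for 6 members, 5 of them lower with age, beside 14.2% of all genes.

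Kcnab2 had the smallest p, with the values given above (log2 -0.94, SE 0.334, quasi-likelihood adjusted p = 0.505). Kcnt2 was at 2.33, 1.36 and 1.34 CPM at 9 months (rats 3, 2 and 4) and at 0.488, 1.05 and 0.606 CPM at 24 months (rats 12, 8 and 11), without overlap. Its log2 fold change was -1.20 (SE 0.439, quasi-likelihood adjusted p = 0.517). Kcnj2, the main strong inward rectifier of the ventricle, was at 2.77, 4.74 and 5.57 CPM in 9-month rats 3, 2 and 4 and at 14.0, 7.76 and 5.40 CPM in 24-month rats 12, 8 and 11. Rat 12 was far above the rest. The log2 fold change was 1.02 (SE 0.374, quasi-likelihood adjusted p = 0.517), and 0.58 without rat 12.

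Of the transient outward pore subunits, Kcna4 and Kcnd2 had opposite signs. Kcna4 was at 0.259, 0.678 and 0.817 CPM in 9-month males 3, 2 and 4 and at 1.37, 1.25 and 1.32 CPM in 24-month males 12, 8 and 11. The groups did not overlap (log2 1.12, SE 0.456, quasi-likelihood adjusted p = 0.553). Kcnd2 was at 2.25, 1.61 and 1.11 CPM in the younger and 0.390, 1.05 and 0.882 CPM in the older rats, also without overlap (log2 -1.04, SE 0.450, quasi-likelihood adjusted p = 0.573). Kcnip2 was at 293, 346 and 264 CPM in the younger and 222, 377 and 337 CPM in the older rats, and the groups overlapped.

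RLX in 24-month males gave no called member by the quasi-likelihood test, beside 0% of all genes, and none by DESeq2, edgeR's exact test or voom, which called 0.859%, 0.0678% and 0.957% of all genes. 2 of 39 members reached an unadjusted p under 0.05, 1 higher and 1 lower, beside 11.2% of all genes (4.42% higher and 6.77% lower). These 2 genes were also those whose groups did not overlap, beside 19.3% of all genes. Kcng2 was at 5.79, 3.46 and 7.83 CPM in treated rats 2, 3 and 7 against 9.17, 10.9 and 11.7 CPM in the controls, all treated rats being lower. On the log2 scale the difference was -0.85 (SE 0.281, quasi-likelihood adjusted p = 0.354). Kcnt2 was at 1.45, 1.94 and 1.15 CPM in the treated rats, above every control (log2 1.07, SE 0.424, quasi-likelihood adjusted p = 0.406). Kcnj3 followed by p, at 12.3, 13.8 and 8.14 CPM with RLX and 5.76, 10.9 and 8.98 CPM in control rats 12, 8 and 11, with overlap (log2 0.44, SE 0.281, quasi-likelihood adjusted p = 0.580). Without control rat 12 its log2 fold change was 0.23, and without treated rat 3 it was 0.27. The cardiomyocyte sum was 36073 to 41052 CPM with RLX and 45605 to 47423 CPM without, and the groups did not overlap. Of the 10 markers 4 were lower and 1 was higher at an unadjusted p under 0.05, though none was called. The part of the cardiomyocyte share in the member values was not tested.

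RLX-treated males against 9-month males gave no called member by the quasi-likelihood test, beside 0% of all genes, and none by DESeq2, edgeR's exact test or voom, which called 2.31%, 2.02% and 0.814% of all genes. An unadjusted p under 0.05 was reached by 1 of 39, Kcnj2, beside 15.7%. Kcnj2 was at 6.64, 7.17 and 11.2 CPM in treated rats 2, 3 and 7, all above the 9-month males, with a log2 fold change of 0.94 (SE 0.312, quasi-likelihood adjusted p = 0.199). Kcng2 overlapped between these groups through 9-month rat 3 (log2 -0.92, SE 0.431, quasi-likelihood adjusted p = 0.336), and without 9-month rat 2 its log2 fold change was -0.46. Kcna4 was at 1.62, 1.01 and 1.02 CPM with RLX, above the 9-month males (log2 1.03, SE 0.497, quasi-likelihood adjusted p = 0.341). Groups did not overlap for 3 of 39 members, beside 22% of all genes.

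**Figure D4:**
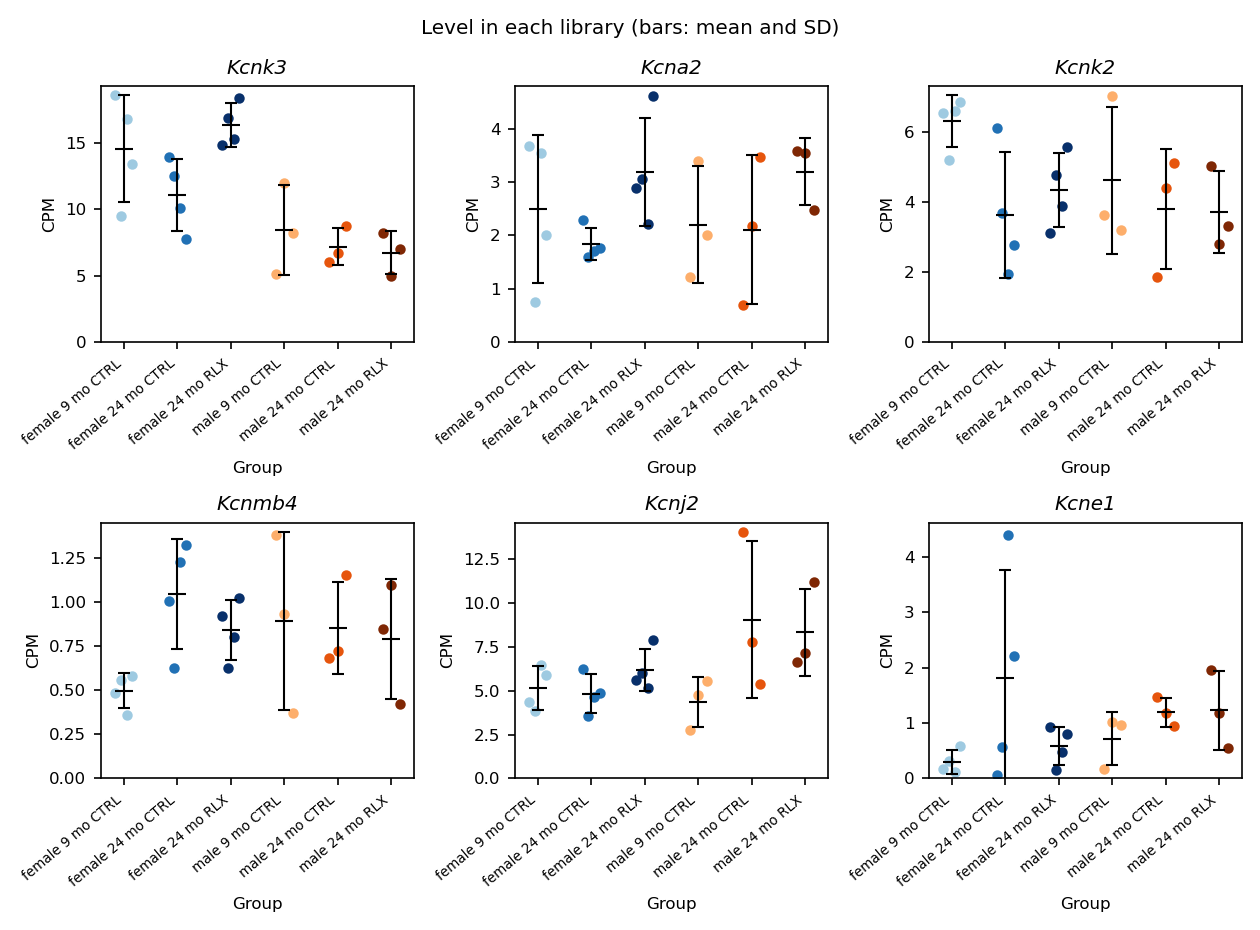
CPM in each library (points) of 6 genes named in the aging and RLX comparisons, with the mean and SD as bars (the SD bar of Kcne1 in 24-month female controls is cut off at 0). All 4 RLX-treated females lie above all 24-month female controls for Kcnk3, 24-month male control rat 12 stands at 14.0 CPM for Kcnj2, and female control rats 5 and 6 carry the mean of Kcne1.

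An interaction term for RLX and sex at 24 months gave 0 called members by the quasi-likelihood test and by DESeq2, beside 0% and 2.92% of all genes. 6 of 39 members reached an unadjusted p under 0.05, 4 higher and 2 lower in females relative to males, beside 14.2% of all genes (9.28% higher and 4.89% lower). Kcnt2 had the smallest p: the 24-month females held 2.19, 1.33, 1.27 and 1.02 CPM with RLX (rats 1, 2, 4 and 6) and 1.39 to 2.59 CPM without, and the males were higher with RLX, as given above. The log2 difference was -1.50 (SE 0.508, quasi-likelihood adjusted p = 0.199). Kcng2 had a log2 difference of 0.96 (SE 0.340, quasi-likelihood adjusted p = 0.218), with 18.9, 25.6, 35.4 and 28.4 CPM in RLX-treated females 1, 2, 4 and 6, a range that held all 24-month female controls. Kcnma1 came next (log2 -2.82, SE 1.12, quasi-likelihood adjusted p = 0.266), and again rested on few reads. Kcnh2, Kcnj11 and Kcnk3 had log2 differences of 0.65, 0.78 and 0.67, each with a quasi-likelihood adjusted p of at least 0.278.

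Of 40 genes whose products bind, traffic or control these channels, 34 were tested. In female aging 4 were called, all lower, where 4.93% of all genes were called and 1.74% were called lower. Among them was Rnf207 (log2 -0.86, SE 0.104, quasi-likelihood adjusted p = 0.00424), a ubiquitin ligase known to act on the Kcnh2 channel. The others were the scaffold gene Fhl2 (log2 -0.68, SE 0.106, quasi-likelihood adjusted p = 0.00923), the repolarization-gradient factor Irx5 (log2 -0.74, SE 0.180, quasi-likelihood adjusted p = 0.0377) and the membrane anchor Ank3 (log2 -0.59, SE 0.145, quasi-likelihood adjusted p = 0.0402). Rnf207 was also higher in females than in males at 9 months (log2 1.26, SE 0.226, quasi-likelihood adjusted p = 0.0186), as were Akap9, a scaffold of the Kcnq1 channel, and Ank3, where 1.62% of all genes were called higher. At 24 months none of the 34 was called higher in females. Gata4 and Actn2 were called lower, where 2.08% of all genes were. At that age 4 were higher and 5 lower at an unadjusted p under 0.05 (12.4% and 11.9% of all genes). With RLX none was called in either sex by the quasi-likelihood test, with an unadjusted p under 0.05 in 11 genes higher and 1 lower in females (6.73% and 7% of all genes) and in 2 higher and 2 lower in males (4.42% and 6.77% of all genes). In females the cardiomyocyte marker sum moved in the same direction as most of these genes, lower with age (41258 to 48644 CPM against 32718 to 37242 CPM) and higher with RLX (41119 to 47101 CPM), without overlap in either comparison, and its part was not tested.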

How the data were processed

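Left ventricular total RNA of 21 rats was sequenced by the authors after removal of ribosomal sequences, as paired reads of 75 bases, and mapped to the rat genome in Biomedical Genomics Workbench 3.0.1. No source used here names the build. The deposited counts are the authors' total counts per gene, not normalized. The deposited RPKM values are the authors' counts scaled by gene length and mapped reads. CPM and TPM columns were not used.

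Each comparison was fitted in R 4.3.3 with edgeR 4.0.16 on the counts of its own groups (TMM factors, robust quasi-likelihood F test, Benjamini-Hochberg adjustment over all genes tested, called at an adjusted p of at most 0.05). Genes needed 10 counts in 3 of 21 libraries. SE is the absolute log2 fold change divided by the square root of F. Named were the called genes, the 3 with the smallest p per comparison, others with an unadjusted p under 0.05 and the genes of the classical cardiac currents by level. Alternatives were DESeq2 1.42.0, RLE factors, filterByExpr, no filter, all groups in 1 fit, removal of a gene length trend, edgeR's exact test, voom (limma 3.58.1), the study's DEG rule, a replicate block and leaving out each library. The pipeline was tested on simulated data. Replicates differed beyond counting noise (chi-square per degree of freedom of at least 13.4). The genes and lists were chosen with earlier results of these data known. Identifiers could not be matched to the reference annotation, so no coordinates are given. Some genes that the naming rule covers are counted but not reported here by name.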

Additional observations from a re-analysis of the deposited data

Results flagged for a closer look

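A library stood apart from its group in 3 of 69 groups examined over 23 genes, where chance flags about 1 in 20. The 23 genes were called, had an unadjusted p under 0.05 or were among the 3 smallest p in a comparison. Other genes named above were not examined. The groups were the 3 female groups of 4 rats for each gene, and the male groups of 3 rats were too small to be examined. Kcnh2 was at 28.4 CPM in 9-month female rat 1, with the next rat at 22.8 CPM. Kcnip2 was at 390.7 CPM in 9-month female rat 4, with the next at 279 CPM. Kcnd1 was at 1.14 CPM in RLX-treated 24-month female rat 4, with the next at 0.626 CPM.

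The aging effect on Kcnab2 differed between the sexes by 1.52 on the log2 scale (SE 0.397, edgeR quasi-likelihood adjusted p = 0.0496), a value close to the threshold and lost in most fits without 1 rat.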

How the results depend on the processing

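The counts of potassium channel genes called by edgeR's quasi-likelihood test were 0 in all 6 comparisons within a sex and in RLX by sex, 1 for aging by sex, 2 for the sexes at 9 months and 1 at 24 months. DESeq2 called 1 in female aging, 2 for aging by sex, 5 at 9 months and 3 at 24 months. Without the count filter 0 was called for aging by sex, and at 9 months the count stayed at 2 while Kcng2 lost its call (log2 1.59, adjusted p = 0.0597) and Kcnj3 gained one (adjusted p = 0.0410). For aging by sex the unfiltered fit called 214 genes higher and 131 lower of 18494. At 9 months it called 313 genes higher and 422 lower of 17705. At 24 months filterByExpr called 2 of 35 members, beside 395 genes higher and 269 lower of 12667. With no filter 2 of 82 members were called, beside 406 genes higher and 298 lower of 17868. With the gene length trend removed 2 of 39 were called, beside 445 genes higher and 434 lower of 13276. With all 6 groups in 1 fit 3 of 39 were called, beside 560 genes higher and 645 lower of 13276. Of the 82 counts under other settings, 71 kept within 1.5 times of the main count and 11 did not. No fold change reversed among the pairs of gene and comparison that were checked. Those pairs were called, had an unadjusted p under 0.05 or were among the 3 smallest p of the comparison. Other signs given above were not checked. Most of the kept counts were 0 beside a main count of 0, and so do not bear on the calls that were made. Between the sexes at 24 months RLE factors alone kept the main count of 1. Leaving out each rat in turn gave 0 to 1 in female aging (1 without 24-month control rat 2), 0 to 2 for aging by sex and 0 to 6 at 9 months (6 without male rat 2). The shares of all genes called in these fits are not given, so these counts cannot be set against a background. The causes of the changes in count were not tested. A paired fit with the rat number as a replicate block called Kcnj3, lower, in RLX-treated females against 9-month females. This was 1 of 39 members, beside 191 genes called higher and 82 lower of 13276. In RLX-treated males against 9-month males the paired fit called 1 of 39 (Kcng2, lower), beside 193 genes higher and 526 lower of 13274. In the other 2 comparisons that share numbers it called 0 members. The deviations of same-numbered rats correlated from -0.187 to 0.151 in females and at -0.001 and 0.389 in males, so the numbers were not taken to pair the rats. RLE factors moved no count, nor did edgeR's exact test and voom, which were run for the 6 comparisons within a sex. The study's DEG rule, applied to the same 6, can only drop calls of the quasi-likelihood test. With 0 calls there its outcome was fixed in advance. Depth limits the genes with few reads: Kcnip3, Kcnmb1 and Kcnma1 reached 10 counts in at most 5 libraries.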
